A study of Homo sapiens with 2 samples.

Results

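The Notch genes described here are 10 receptors, ligands and transcriptional targets, NOTCH1, NOTCH2, NOTCH3, JAG1, JAG2, DLL1, HES1, HES2, HEY1 and NRARP, out of 19775 genes named by GEO's annotation of the array. They were chosen by symbol, taking every probe set that the annotation pairs with exactly 1 gene of that name, which gave 27 probe sets. The study hybridised 2 Affymetrix expression arrays, both with RNA from KYSE170-luc, a human esophageal squamous carcinoma line whose suffix stands for luciferase, grown in RPMI-1640 with serum. The control array came from cells that had received the empty vector, and the SOX17 array from cells that had received the SOX17 expression plasmid, each taken 12 h after transfection. SOX17 is a transcription factor of the SOX family, and no promoter of the plasmid is given in the sources used here. There was 1 array per group, so no p-value exists for any difference, and each value below compares these 2 arrays. The question that the comparison puts to the Notch genes is whether their transcripts differ soon after SOX17 is introduced.

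Notch receptors are cell-surface proteins that are cut when they bind a Delta or Jagged ligand on a neighbouring cell. The released intracellular domain enters the nucleus and joins the DNA-binding protein RBPJ and a Mastermind coactivator. It switches on targets such as some HES and HEY repressors and NRARP, a feedback inhibitor of the same complex. In stratified squamous epithelium the pathway is known for moving cells out of the basal layer into differentiation, and in arterial endothelium SOX17 is known to act upstream of Notch genes.

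Values are linear intensities in the array's own units. The floor, below which a value is not read as a level, was set at percentile 60 of the pooled intensities, which is 95.0, and a probe set at or above it on both arrays is called measured. Where a gene has several probe sets, the one with the highest mean log2 intensity represents it. Ratios are given on the log2 scale as SOX17 over control, and a negative ratio means less signal with SOX17. The error attached to a ratio is the SD of 1 log2 ratio, taken from the 2 brightest measured probe sets of each of 4574 genes, and was 0.35 for genes in the lowest tertile of intensity, 0.26 in the middle tertile and 0.17 in the highest one. Differences between cultures are not part of this error.

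The arrays had the same mean of about 500.1 without the lowest and highest 2% of values, and their medians differed by a factor of 1.10. SOX17 itself was below the floor on both arrays, at 4.5 and 83.8 on 1 probe set and at 19.1 and 6.5 on the other, so the labels stay unchecked by it. The squamous label was checked against 7 named markers, and all 7 were measured, among them the basal keratin KRT14 (1509.7 and 1814.3) and the desmosomal cadherin DSC3 (2175.0 and 2068.1). Their summed intensity was 96405 on the control array and 101962 on the other. Of 8 endothelial markers, 8 lay below the floor on both arrays, with sums of 204.8 and 212.2. Of 7 leukocyte markers (sums 400.1 and 432.1) none was measured, with CSF1R (114.8 and 12.4) and CD53 (86.0 and 147.2) above the floor on 1 array each. Of 8 fibroblast markers (sums 951.7 and 1011.7) only COL1A1 was measured, at 780.2 and 845.1, and the other 7 lay below the floor on both. Poly-A spike-in controls, added to the RNA, read higher with SOX17 on 24 of 24 probe sets (median log2 ratio 0.57), and signal at the 3′ end over the 5′ end came for ACTB to 11.6 in the control and 10.4 with SOX17, and for GAPDH to 1.16 and 1.18. Their part in the ratios below was not tested.

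All 10 Notch genes were measured, and the differences between the arrays were small. None was 1.5-fold higher or lower, against 6.97% of the 10034 measured genes at 1.5-fold and 0.747% at 2-fold. The log2 ratios of the 3 receptors ran from -0.49 to -0.08, those of the 3 ligands from -0.03 to 0.18 and those of the 4 targets from -0.38 to 0.43. Ratios larger than their own SD were those of NOTCH1, HES1 and NRARP, which were lower on the SOX17 array, and of JAG1 and HES2, which were higher. Over the 10 genes, 4 ratios were above 0 and 6 below, beside 54.6% above and 45.4% below among all measured genes. Their median log2 ratio was -0.06, and that of all measured genes was 0.03. The absolute ratio exceeded 1 SD at its level for 5 of the 10, where 39.4% of measured genes did the same, and exceeded 2 SD for 1 of the 10, NRARP, where 9.88% did.

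**Figure D1:**
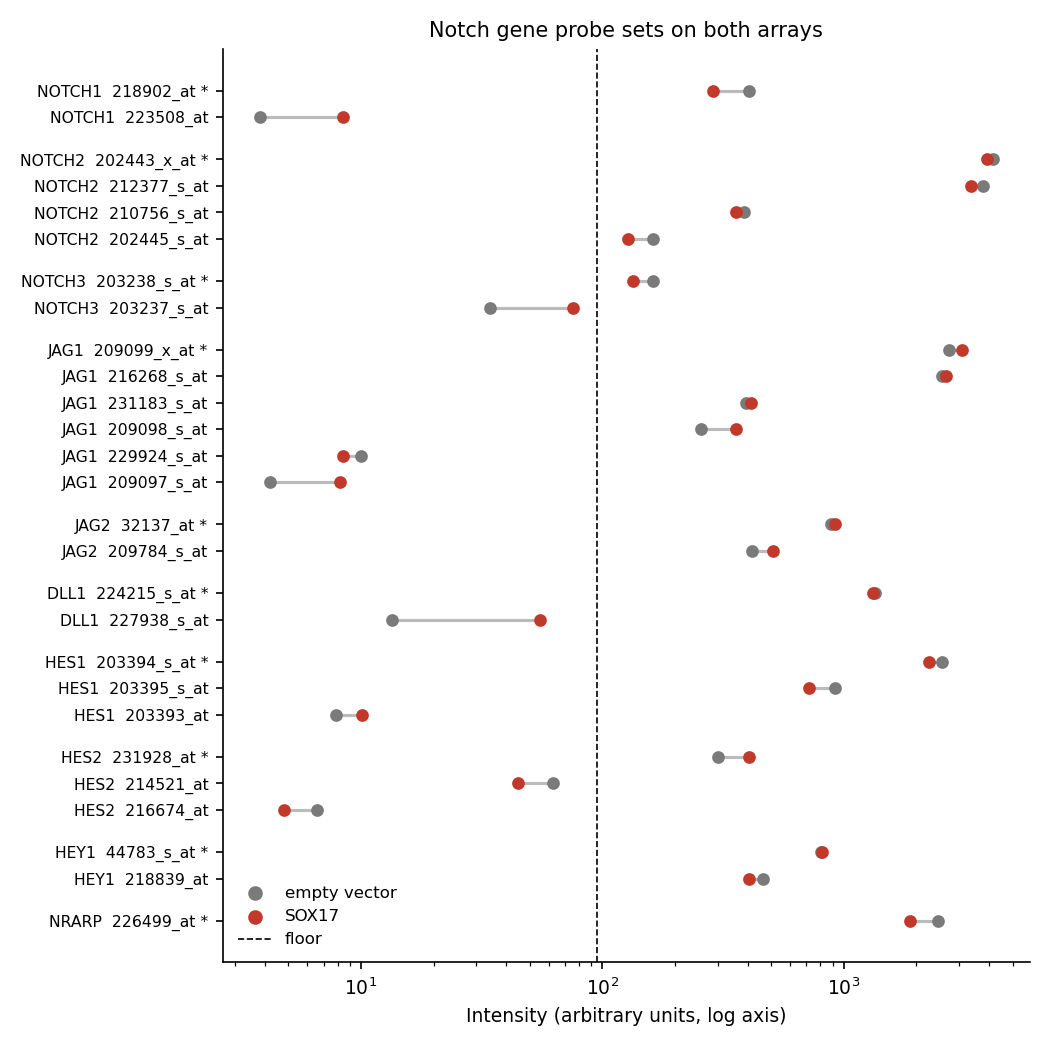
Intensity (arbitrary units, log axis) of the 27 probe sets of the Notch genes on the control array (grey) and the SOX17 array (red), 1 row per probe set; the dashed line is the floor of 95.0 and an asterisk marks the probe set that represents the gene. The 19 probe sets to the right of the floor are measured on both arrays, and the 8 to the left lie below it on both.

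Of the 27 probe sets 19 were measured, 8 of them higher and 11 lower on the SOX17 array. The other 8 were below the floor on both arrays, between 3.8 and 75.6, and no fold is given for them. Of the 19 measured probe sets, 14 have an identifier ending in _s_at or _x_at, endings that mark probe sets whose probes may match more than 1 transcript.

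Among the receptors, NOTCH1 had the lowest ratio of all 10 genes. NOTCH1, which is often mutated in squamous carcinomas, read 404.1 on the control array and 288.0 with SOX17. The SOX17 array was the lower of the pair, by a log2 ratio of -0.49 (SD at its level 0.35). Of the 3345 measured genes in the same tertile of level, 22.8% had an absolute ratio as large. The value rests on 1 measured probe set, since the other read 3.8 and 8.4.

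NOTCH2, a receptor with broad expression in epithelia, read 4153.4 on the control array and 3917.0 with SOX17, a log2 ratio of -0.08 (SD 0.17). Its other 3 measured probe sets read 3761.3 and 3370.2, 384.7 and 358.1, and 162.1 and 127.4. All 4 were lower on the SOX17 array, with log2 ratios of -0.35 to -0.08. The genome holds partial copies of NOTCH2, the NOTCH2NL genes, so probe sets named for NOTCH2 may also read those transcripts.

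NOTCH3, whose own transcription is known to respond to Notch signalling, read 161.6 on the control array and 133.6 with SOX17, a log2 ratio of -0.27 (SD 0.35). Its other probe set went the opposite way, at 34.1 and 75.6, but below the floor on both arrays. The ratios of NOTCH1 and NOTCH2 differed by 0.40, about the size of their combined SD of 0.39. Those of NOTCH1 and NOTCH3 differed by 0.21, within their combined SD of 0.50.

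Among the ligands, JAG1 lay highest. JAG1, a Jagged ligand of squamous and other epithelia, read 2728.2 on the control array and 3090.3 with SOX17, a log2 ratio of 0.18 (SD 0.17). Its other measured probe sets read 2542.2 and 2648.5, 394.5 and 412.1, and 255.6 and 356.5. All 4 were higher on the SOX17 array, with log2 ratios of 0.06 to 0.48. A further 2 probe sets of JAG1 lay at 10.0 or less on both arrays.

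JAG2, the second Jagged ligand, read 884.6 and 920.2 on its representing probe set, a log2 ratio of 0.06 (SD 0.26), and 414.7 and 508.5 on the other (0.29). Both were higher on the SOX17 array. DLL1, a Delta ligand that basal keratinocytes are known to express, read 1344.1 on the control array and 1319.8 with SOX17, a log2 ratio of -0.03 (SD 0.26), and its sign turned after quantile normalization (0.0051). Its other probe set was below the floor on both arrays, at 13.5 and 55.3. The ratios of JAG1 and JAG2 differed by 0.12, within their combined SD of 0.31.

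**Figure D2:**
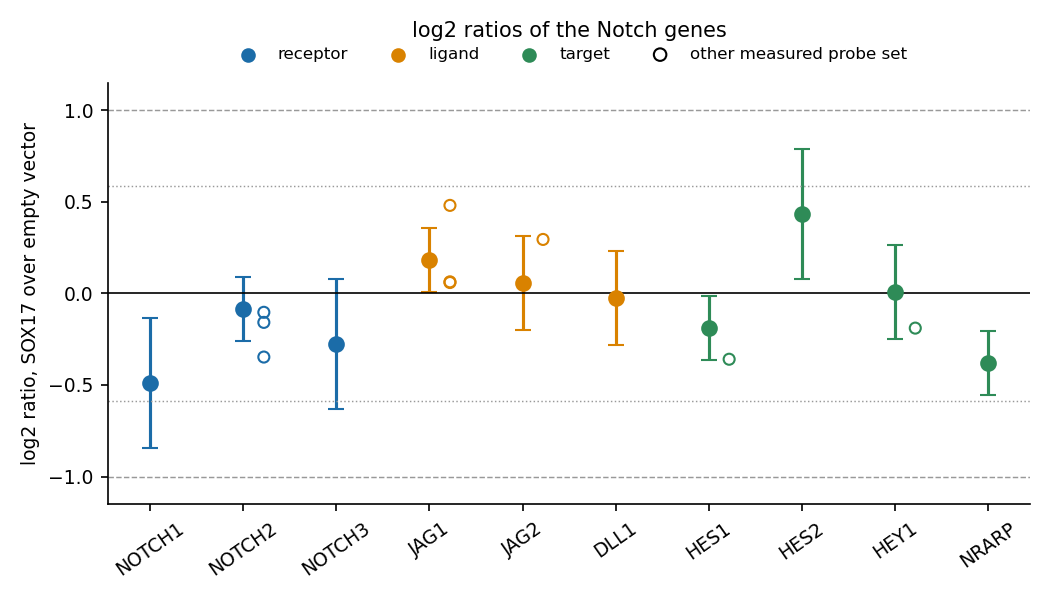
log2 ratio of the SOX17 over the control array for each Notch gene, coloured by role; filled points with bars are the representing probe set and ±1 SD of 1 log2 ratio at its level, open points are the other measured probe sets, and dotted and dashed lines mark 1.5-fold and 2-fold. The filled points lie between -0.49 (NOTCH1) and 0.43 (HES2), all inside the 1.5-fold lines.

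The genes grouped here as targets were chosen by name, and whether the cleaved receptor acts on each was not tested. Their upstream letters are shown here because they hold, or lack, letters that such regulation is known to use. The 250 bases before the RefSeq start were read from RefSeq (GRCh38.p14), which matched 8 of the 10 genes, DLL1 and HEY1 being the others. They were searched on both strands for TGGGAA, core letters bound by RBPJ, and for ATTGTT, a form of the SOX core letters. They were also searched for letters that HES and HEY repressors are known to bind. The latter were the E box CACGTG, also used by many other factors, the class C site CACGCG, and a form of the N box, CACGAG. Capitals mark every match, with the letters around ATTGTT in NRARP as well, and each line gives the strand of the gene from 5′ to 3′, ending at the base before the start. The lines are HES1 (chr3:194135898-194136147, plus strand), HES2 (chr1:6419920-6420169, minus strand) and NRARP (chr9:137302272-137302521, minus strand).
HES1: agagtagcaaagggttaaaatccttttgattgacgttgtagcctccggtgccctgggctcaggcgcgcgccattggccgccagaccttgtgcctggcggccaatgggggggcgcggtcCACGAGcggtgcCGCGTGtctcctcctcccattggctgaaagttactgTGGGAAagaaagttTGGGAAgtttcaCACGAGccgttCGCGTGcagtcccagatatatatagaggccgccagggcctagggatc
HES2: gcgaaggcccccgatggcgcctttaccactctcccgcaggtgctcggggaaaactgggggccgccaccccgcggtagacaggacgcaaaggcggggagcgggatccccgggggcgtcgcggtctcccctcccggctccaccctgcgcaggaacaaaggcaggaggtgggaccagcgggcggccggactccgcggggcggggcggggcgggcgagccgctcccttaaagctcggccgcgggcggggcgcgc
NRARP: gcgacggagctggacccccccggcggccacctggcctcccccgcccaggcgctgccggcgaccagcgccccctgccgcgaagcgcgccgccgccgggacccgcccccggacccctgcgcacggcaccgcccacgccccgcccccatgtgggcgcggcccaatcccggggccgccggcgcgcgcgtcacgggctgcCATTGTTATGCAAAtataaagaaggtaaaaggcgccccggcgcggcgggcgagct

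HES1 held TGGGAA at 2 places, starting 84 and 70 bases before the start, and was the only one of the 8 genes with a match. Of 35116 RefSeq promoters of the same 250 bases, 20.8% held it at least once and 2.90% at 2 places or more. HES1 also held CACGAG at 2 places and CACGCG at 2, on the opposite strand, in a promoter that the HES1 protein is known to repress. CACGAG stood in 5.58% and CACGCG in 9.72% of all promoters. NOTCH3 held the former at 1 place and JAG2 the latter at 1. CACGTG, found in 6.34% of all promoters, was in none of the 8. ATTGTT stood in 8.98% of all promoters and, of the 8, in NRARP alone, starting 54 bases before the start. The letters there run CATTGTTATGCAAA, in which a SOX core is followed by letters that POU factors are known to bind. This longer stretch was picked out after it had been seen in NRARP, so its frequency says nothing and is not given. HES2, NOTCH1, NOTCH2 and JAG1 had no match to any of the letters searched. Other forms of these sites were not searched for, so no gene is shown to lack a SOX, RBPJ or HES site. The 8 regions held 59.2% (HES1) to 81.6% (JAG2) G and C, against a median of 58% over all promoters. The shares over all promoters are not matched for this. A match of letters is no measured site, and no binding was measured in these cells.

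**Figure D3:**
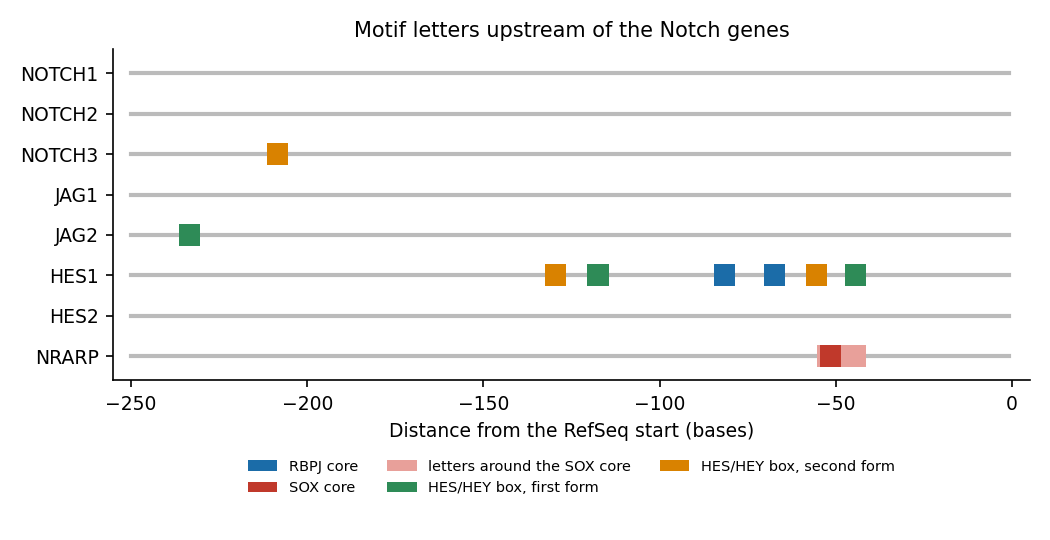
Positions of the matched letters in the 250 bases before the RefSeq start of 8 Notch genes (horizontal axis, distance from the start in bases), 1 line per gene, with bars drawn to the length of each match; the first form of the HES/HEY box is CACGCG and the second CACGAG. HES1 carries 6 matches, NRARP a SOX core inside the longer stretch picked out afterwards, and 4 genes carry none.

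HES1, the repressor most often used as a readout of Notch signalling, read 2563.4 on the control array and 2247.4 with SOX17, a log2 ratio of -0.19 (SD 0.17). Its other measured probe set read 916.3 and 714.2, a log2 ratio of -0.36 (SD 0.26). Both were lower on the SOX17 array, and the third probe set was below the floor on both, at 7.9 and 10.1. Of the 3345 measured genes in the highest tertile of level, 39.9% had an absolute ratio as large as that of the representing probe set.

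NRARP, the feedback inhibitor, read 2451.5 on the control array and 1886.8 with SOX17. The SOX17 array was the lower, by a log2 ratio of -0.38, which is 2.16 times the SD of 0.17 at its level. In the same tertile 352 of 3345 measured genes, 10.5%, had an absolute ratio as large. NRARP has a single probe set, so no second reading of this gene exists on the arrays.

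HES2, a HES family repressor, went the other way. It read 300.7 on the control array and 406.3 with SOX17, a log2 ratio of 0.43 (SD 0.35). Its other 2 probe sets were below the floor on both arrays, at 62.5 and 44.7 and at 6.6 and 4.8, and each read lower on the SOX17 array. Of the measured genes in its tertile, 27.6% had an absolute ratio as large.

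HEY1, a HEY family repressor and Notch target, was level between the arrays. It read 807.5 and 812.2, a log2 ratio of 0.0084 (SD 0.26), and its other probe set read 461.9 and 405.0, a log2 ratio of -0.19. The sign of its ratio turned with median centring (-0.00029) and with the mean over both probe sets (-0.09). It was the only one of the 5 Notch genes with several measured probe sets whose probe sets differed in sign. Among all 4574 genes with several measured probe sets, 48.6% had the same sign on each.

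The 10 genes were also set against each other, in 45 pairs. In 19 pairs the ratios differed by more than 1 combined SD and in 2 by more than 2 combined SDs, and both of the latter included NRARP. That is 42.2% and 4.44% of the pairs, beside 39.1% and 9.48% of all pairs of measured genes, and pairs that share a gene are not independent. JAG1 and NRARP differed by 0.56 (combined SD 0.25), and HES2 and NRARP by 0.81 (combined SD 0.39). HES1 and HES2 differed by 0.62 (combined SD 0.39), while HES1 and NRARP, both lower on the SOX17 array, differed by 0.19 (combined SD 0.25). These are sizes beside an error within arrays, and no test was possible.

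**Figure D4:**
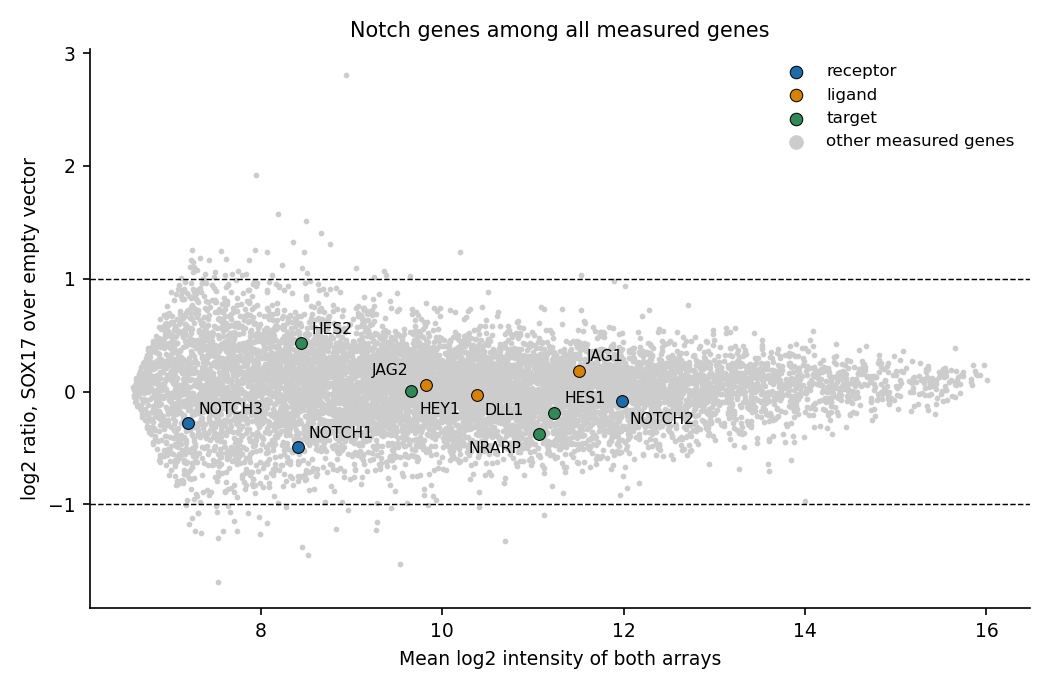
log2 ratio of the SOX17 over the control array (vertical axis) against the mean log2 intensity of both arrays (horizontal axis) for the 10034 measured genes, with the 10 Notch genes coloured by role and dashed lines at 2-fold. The Notch genes lie inside the cloud of measured genes, with ratios from -0.49 (NOTCH1) to 0.43 (HES2); beside genes of like intensity NRARP lies furthest out, where 10.5% of its tertile had an absolute ratio as large.

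The rest of the pathway was read from 6 lists of 70 genes, of which 64 had a probe set named to 1 gene and 47 were measured. Of the 47, 26 lay above 0 and 21 below, with a median log2 ratio of 0.01. At 1.5-fold 3 were higher, where 3.78% of all measured genes were, and 1 was lower, where 3.19% were. None passed 2-fold.

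Of the other receptors and ligands 4 of 8 were measured. DLL3, a Delta-like protein that does not activate receptors on neighbouring cells, read 329.0 and 478.2, a log2 ratio of 0.54. This rests on an _x_at probe set, the only measured one of its 4. The microfibril protein gene MFAP2 had a log2 ratio of 0.25. DLL4 and NOTCH4, the ligand and receptor of arterial endothelium, were below the floor on both arrays, DLL4 at 55.0 and 76.5 and NOTCH4 at 40.8 and 39.0.

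Of the genes that cut the receptor 7 of 8 named ones were measured, with a median of 0.06. PSEN2, a catalytic subunit of gamma-secretase, read 170.3 and 318.8, a log2 ratio of 0.90, but its other measured probe set had a log2 ratio of -0.36. ADAM10, the protease that makes the first ligand-induced cut, read 5827.0 and 4478.8, a log2 ratio of -0.38, and its 3 probe sets ranged from -0.38 to 0.23.

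Of the genes that add sugars to the receptor 6 of 9 were measured, with a median of -0.09, whose sign turned without _x_at and _s_at probe sets (0.24) and with a lower floor or none (0.0028). XXYLT1, a xylosyltransferase that extends the sugars on Notch repeats, read 178.4 and 320.6, a log2 ratio of 0.85 on 1 probe set. GXYLT1, which adds the preceding xylose, had a log2 ratio of -0.33.

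Of the genes for ubiquitination and trafficking 11 of 15 were measured, with a median of 0.00073, which turned to -0.0079 with median centring and -0.13 with the floor at percentile 75. FBXW7, the ubiquitin ligase subunit that marks the cleaved receptor for breakdown, read 1099.5 and 652.9, a log2 ratio of -0.75, yet its 3 measured probe sets ranged from -0.75 to 0.03. DTX2, a Deltex ubiquitin ligase, read 111.3 and 170.7, close to the floor, a log2 ratio of 0.62.

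Of the nuclear complex all 16 named genes were measured, 7 above 0 and 9 below, with a median of -0.03, which turned to 0.04 with the mean over probe sets and without _x_at and _s_at probe sets. RBPJ, the DNA-binding partner of the cleaved receptor, read 2362.1 and 2304.3, a log2 ratio of -0.04, and its other measured probe set had a log2 ratio of -0.38. The acetyltransferase EP300, a coactivator, had a log2 ratio of -0.53 (-0.11 on its other probe set), and the Mastermind coactivator MAML3 of 0.45.

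Of the other HES and HEY family repressors 3 of 8 named ones were measured, with a median of 0.08. The related repressors BHLHE40 and BHLHE41 had log2 ratios of 0.19 and -0.15. Of 10 suprabasal genes of squamous epithelium, the differentiated layers that Notch signalling promotes, 2 were measured. The keratins KRT10 and KRT13 had log2 ratios of 0.21 and -0.22, and the cornified envelope gene IVL was below the floor on both arrays, at 43.1 and 84.5.

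**Figure D5:**
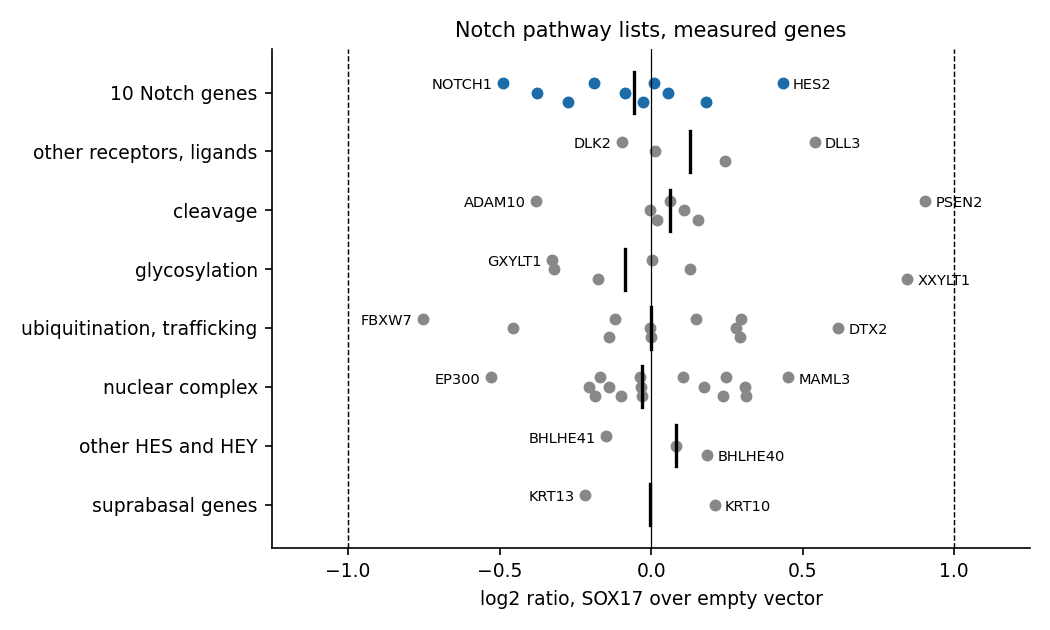
log2 ratio of the SOX17 over the control array for the measured genes of each list (points, 1 per gene, spread vertically only for legibility), with the list's median as a black bar, dashed lines at 2-fold and the lowest and highest gene named. No point passes 2-fold; the outermost are PSEN2 (0.90), XXYLT1 (0.85) and FBXW7 (-0.75).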

How the data were processed

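The authors deposited a linear intensity for each probe set on each array, which they made with GCOS, per the submitters' processing notes. Not given in the sources used here were its algorithm, settings and detection calls. From the values, both arrays had been scaled to a common mean, and they were used as deposited. Of 54675 probe sets, 62 were controls, and GEO's platform annotation gave 1 gene to 41091, several to 1801 and none to 11721. With 1 array per group no test was made, the number of arrays limits the precision, and likeness of pattern between genes was not computed.

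The members and lists were chosen with earlier results of these data known. Named genes are the 10 members, SOX17, the 2 measured genes with the largest absolute log2 ratio on each other list, and DLL4, NOTCH4 and RBPJ. KRT14, DSC3, COL1A1, CSF1R, CD53, IVL and ITCH were named after their values were seen. Listed genes without a probe set named to 1 gene were not analysed here. Alternatives were median centring, quantile normalization, a loess fit (span 0.4) of ratio on intensity, no floor or one at percentile 50 or 75, averaging a gene's measured probe sets, leaving out _x_at and _s_at probe sets, and a 3-fold threshold. Scripts used Python 3.11.15, numpy 2.4.6, pandas 2.3.3, statsmodels 0.14.6 and matplotlib 3.10.9, and were tested on simulated data.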

Additional observations from a re-analysis of the deposited data

How the results depend on the processing

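No Notch gene passed 1.5-fold or 2-fold under any of the 8 alternative settings tried, nor 3-fold as deposited. Their median log2 ratio, -0.06 as reported, stayed below 0 and lay between -0.19 (without _x_at and _s_at probe sets, 5 genes measured) and -0.03 (floor at the 75th percentile, 7 genes measured). In every setting in which they were measured, NOTCH1, NOTCH2, NOTCH3, HES1 and NRARP kept a ratio below 0. JAG1, JAG2 and HES2 likewise kept one above 0. The floor settings could not change a gene's ratio, only whether it was measured. For NOTCH1, HES2 and NRARP, with a single measured _at probe set, averaging or leaving out probe sets could not change it either. DLL1 turned to 0.0051 after quantile normalization. HEY1 turned to -0.00029 with median centring, -0.09 with the mean over probe sets and -0.19 without _x_at and _s_at probe sets. Of the other lists, the receptors and ligands had a median of 0.54 with the floor at the 75th percentile, against 0.13 as reported. With that floor DLL3 alone stayed measured, so 0.54 is its ratio and no shift of the list. The glycosylation genes had a median of 0.24 without _x_at and _s_at probe sets, against -0.09. The sign of the glycosylation median turned in 3 of the 8 settings, and that of the trafficking and nuclear medians in 2 each. That of the suprabasal median turned in 2 of 7, and that of the other pathway lists in none. The suprabasal list and the other HES and HEY list had a median in 7 settings only. No paired analysis was possible because each group holds 1 array.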

Other observations

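1 probe set outside the rule was paired with NOTCH2 and 4 NOTCH2NL genes together. It read 362.9 on the control array and 463.7 with SOX17, a log2 ratio of 0.35, equal to the SD of 0.35 at its level, while the 4 probe sets named for NOTCH2 alone had log2 ratios of -0.35 to -0.08.

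The following genes of the other lists were chosen after their values were seen. MIB1, the ubiquitin ligase that ligand-bearing cells need to send the signal, read 3235.3 and 2359.6, and its 3 measured probe sets had log2 ratios of -0.46 to -0.28. The other genes were above the floor of 95.0 on 1 array only. They were picked by that crossing, which fixes the array on which each reads higher, so no fold is given. The error of a ratio was estimated from measured probe sets only and does not cover them. None of these genes had a measured probe set, though MFAP5 has 3 probe sets and KRT4 and KRT78 have 2 each. Of the 64 named genes of the other pathway lists, 4 were above the floor on the SOX17 array only (6.25%) and 0 on the control array only. The shares of all 19775 genes were 3.79% and 2.08%. FURIN, the convertase that processes receptors on their way to the surface, read 83.7 and 169.3. The HES family gene HES7 read 53.4 and 145.6, the Fringe glycosyltransferase RFNG 49.6 and 143.1, and the microfibril protein gene MFAP5 62.5 and 124.8. Of the suprabasal genes, the keratin KRT4 read 20.9 and 103.4, and the keratin KRT78 read 122.5 and 37.5.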
